A study of Saccharomyces cerevisiae with 54 samples.

Results

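The MCM complex, the replicative helicase of budding yeast, was followed through the genes of its 6 subunits: MCM2 (YBL023C), MCM3 (YEL032W), MCM4 (YPR019W), MCM5 (YLR274W, also CDC46), MCM6 (YGL201C) and MCM7 (YBR202W). They were chosen by systematic name and not by any measured value, and are 6 of the 6679 genes in the tables. All 6 passed the filter on low values in every fit. The subunits form a ring that the origin recognition complex, Cdc6 and Cdt1 load onto DNA at replication origins before S phase. The Cdc7 and Dbf4 kinase, Cdc45 and the GINS complex then turn the ring into the helicase that unwinds DNA ahead of the polymerases. In meiosis the premeiotic S phase comes first, and recombination and the nuclear divisions follow with no further replication between them.

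All cells were of the SK1 background, which sporulates fast and synchronously. A course of 10 states with 1 library each of ribosome footprints, mRNA and total RNA held exponential growth in rich medium (YEPD), 0, 1.5, 3, 4.5, 6, 8 and 10 h in sporulation medium, spores, and MATa/a cells after 4.5 h in that medium, which lack the alpha mating type and do not enter meiosis. Libraries prepared in parallel held 2 of footprints each at 1.5, 3 and 6 h, 1 of footprints each from growth and 0 h, 2 of mRNA each at 1.5 and 6 h, and 1 of mRNA at 3 h. The strain brun95 gave 5 mRNA libraries with Ndt80 induction (5.75, 6, 6.5, 7 and 7.75 h) and 4 without (4, 5.5, 6 and 7.75 h). Ndt80 is the transcription factor that takes cells out of meiotic prophase, and neither the inducing agent nor the rest of the genotype is named in the labels. Separate cultures for the replicates are not mentioned in the labels, and p-values then cover the spread among these libraries alone, which may be technical. In these bulk cultures, fewer cells of a type and less RNA per cell cannot be told apart.

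Levels are in RPKM, which divides reads by the length of the gene and the size of the library, so genes can be compared with each other. Libraries held 1.03 to 24.7 M reads, as recovered from the values, and a member had between 25.0 and 6250 reads. The fewest were those of MCM2 in the parallel footprint library of 0 h, the shallowest of all. Some libraries stood apart. The mRNA library labelled MATa/a correlated across genes with that of growth (r = 0.97) and at 0.54 to 0.76 with the other 8, while the MATa/a footprints correlated at 0.66 with growth and at 0.71 to 0.90 with the others. Its mRNA is therefore given no comparison here. The a-cell receptor gene STE2 stood at 568 RPKM of mRNA in the growth library, against 88.3 at 0 h, so growth and 0 h differ in this marker as well. The 0 h mRNA library had a median gene at 236 RPKM, while those of the rest of the course mRNA ran between 104 and 181 RPKM, so changes against it are given relative to the median of all genes.

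In the course, all 6 subunit genes were low at 0 h, many times higher by 1.5 h, and lower again from 6 h on in footprints. Footprints of MCM2, whose product binds histones H3 and H4 and forms the gate of the ring with Mcm5, were at 244 RPKM at 1.5 h, against 23.2 at 0 h. MCM6, whose product binds Cdt1, stood at 306 RPKM at 1.5 h, against 24.9 at 0 h. MCM4, whose product holds the segment phosphorylated by Cdc7 and Dbf4, had the smallest difference, 183 RPKM at 1.5 h, against 36.0 at 0 h. Relative to the median of all genes, the 6 log2 differences lay between 1.61 (MCM4) and 2.87 (MCM6), and 6 of 6 members were past 2-fold, as were 22.3% of all genes in that direction. In mRNA the same differences lay between 1.85 (MCM4) and 2.98 (MCM6), with 6 of 6 past 2-fold and 23.9% of all genes. With 1 library per state these differences have no replicate check.

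**Figure D1:**
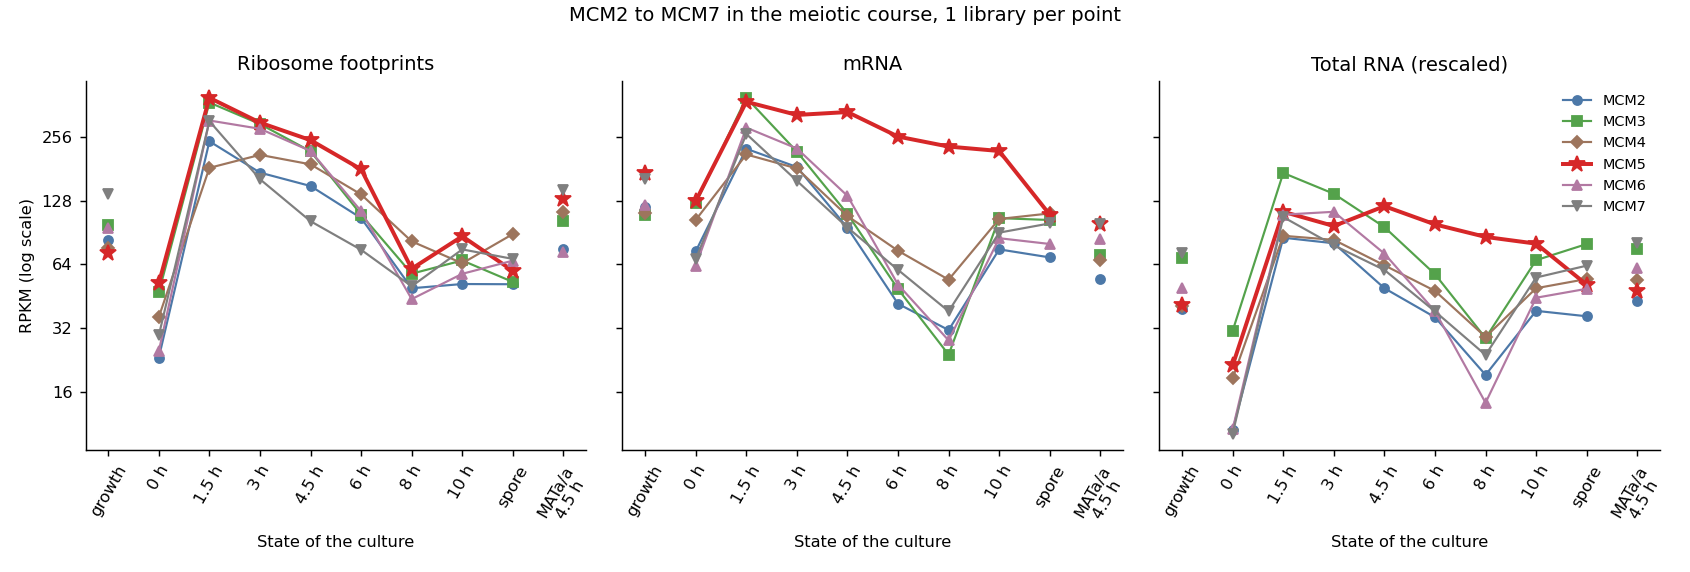
Levels of MCM2 to MCM7 in footprints, mRNA and total RNA (RPKM, log scale) over the 10 states of the course, 1 library per point. MCM5 (red stars) lies between 219 and 335 RPKM in mRNA from 3 to 10 h, while the other 5 lie between 23.9 and 54.1 RPKM at 8 h, and in footprints all 6 lie between 43.8 and 82.1 RPKM at 8 h.

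The highest level between 0 h and spores, measured relative to the library median, came at 1.5 h for 6 of 6 members in mRNA, for 5 of 6 in footprints and for 5 of 6 in total RNA. The exceptions were MCM4 footprints, which stood at 210 RPKM at 3 h and 183 RPKM at 1.5 h, and MCM5 total RNA, which stood 1.02 above the library median at 4.5 h and 1.01 above it at 1.5 h on the log2 scale. Over all genes, 14.9% had their highest mRNA at 1.5 h, 11.6% their highest footprints and 14.6% their highest total RNA. After 1.5 h the footprints of 5 members stood lower at each later hour up to 6 h, while MCM4 had 183, 210, 190 and 137 RPKM at 1.5, 3, 4.5 and 6 h. MCM7, a subunit of the Mcm4, Mcm6 and Mcm7 core that has helicase activity in vitro, had 304 RPKM at 1.5 h, 161 RPKM at 3 h, 102 RPKM at 4.5 h and 74.9 RPKM at 6 h. MCM3, whose product makes the first contact with Cdc6 and the origin recognition complex, had 372, 294, 219 and 110 RPKM at the same hours. In the steps of 3, 4.5 and 6 h, each against the state before it, 0 of 6 members were past 2-fold lower in footprints, against 2.95%, 0.906% and 3.96% of all genes. In the step of 8 h against 6 h, MCM5 (log2 difference of -1.37 relative to all genes) and MCM6 (-1.19) were past 2-fold lower, 2 of 6 members against 5.63% of all genes.

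In mRNA, MCM5 parted from the other 5 subunits after 3 h, staying high while they declined. MCM5 mRNA was at 375 RPKM at 1.5 h, 325 at 3 h, 335 at 4.5 h, 257 at 6 h, 230 at 8 h, 219 at 10 h and 110 in spores. MCM3 mRNA was at 392, 218, 111, 48.8, 23.9, 106 and 104 RPKM at the same points, and MCM6 mRNA at 283, 226, 135, 51.2, 27.9, 84.9 and 79.8 RPKM. MCM2 mRNA had 225, 184, 95.1, 41.6, 31.2, 75.2 and 68.9 RPKM and MCM7 mRNA 264, 159, 95.4, 60.2, 38.3, 90.3 and 99.8 RPKM. MCM4 mRNA declined least of the 5, with 211, 181, 108, 74.1, 54.1, 105 and 111 RPKM. At 8 h the other 5 lay between 23.9 RPKM (MCM3) and 54.1 RPKM (MCM4), and MCM5 did not overlap them. As a ratio to the median of the other 5, MCM5 mRNA was 1.42 at 1.5 h, 1.76 at 3 h, 3.10 at 4.5 h, 5.01 at 6 h, 7.37 at 8 h, 2.43 at 10 h and 1.10 in spores. At 8 h MCM5 made up 56.8% of the summed RPKM of the 6 genes in mRNA, against 21.4% at 1.5 h. In the step of 3 h against 1.5 h, MCM3 was the member past 2-fold lower in mRNA (-1.06 relative to all genes), against 3.34% of all genes. In the later mRNA steps of 4.5, 6 and 8 h, 0 of 6 members were past 2-fold lower, against 1.83%, 2.21% and 5.06% of all genes. MCM5 was set against the others after its values were seen, so the ratio is a description with no test.

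In footprints MCM5 parted far less from the other 5 than in mRNA. The same ratio in footprints was 1.29, 1.42, 1.30, 1.64 and 1.21 at 1.5, 3, 4.5, 6 and 8 h, then 1.34 at 10 h and 0.895 in spores. In total RNA the ratio was 1.06 at 1.5 h, 1.16 at 3 h, 1.90 at 4.5 h, 2.57 at 6 h, 3.61 at 8 h, 1.62 at 10 h and 0.940 in spores. The total RNA libraries thus gave the same order of states from 1.5 to 8 h as the mRNA libraries, with lower values. Across the 9 states without MATa/a, the log2 level of MCM5 mRNA correlated with the mean of the other 5 at r = 0.43, and each of the others with the mean of its other 5 at 0.84 to 0.98. In footprints MCM5 had r = 0.90 and the others 0.79 to 0.99, and in total RNA MCM5 had r = 0.41 and the others 0.84 to 0.99. These correlations are descriptions over 9 states, and the members of a state share its library.

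**Figure D2:**
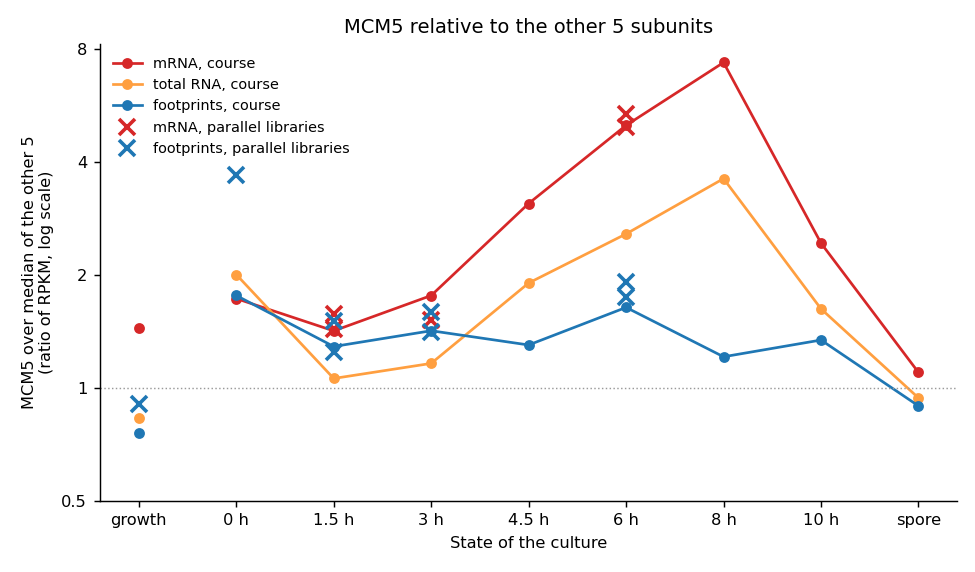
Ratio of MCM5 to the median of the other 5 subunits (RPKM over RPKM, log scale) by state of the culture, as lines for the course and crosses for the parallel libraries. The mRNA ratio reaches 7.37 at 8 h and the total RNA ratio 3.61, while the course footprint ratio lies between 0.759 and 1.76; the parallel footprint library of 0 h lies at 3.70.

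Translation efficiency is the log2 footprint level less the log2 mRNA level of a gene and less the median of all genes. With 1 library per state and assay, it stood higher for each of the other 5 subunits than for MCM5 in growth and from 3 to 10 h. In growth MCM5 was at -0.28 and the other 5 lay between 0.42 and 0.80. MCM5 had 0.56, 0.62, 0.10, -0.12 and -1.54 at 1.5, 3, 4.5, 6 and 8 h, and its 8 h value ranked at percentile 7.10 of 5621 genes. At 3 h the lowest of the other 5 was 0.65. Over the other 5 the median was 0.60, 0.95, 1.24, 1.53 and 1.00 at the same hours. At 8 h the other 5 lay between 0.75 (MCM7) and 1.60 (MCM3), all above MCM5. At 10 h the other 5 lay between -0.04 and 0.38 and MCM5 at -0.69, and in spores the range of the other 5, -0.08 to 0.62, took in MCM5 at 0.01. Set against total RNA in place of mRNA, MCM5 was below each of the other 5 at 6 and 8 h. That order did not hold in growth or at 3, 4.5 and 10 h. At 3 h MCM5 had 299 RPKM of footprints and 97.0 RPKM of total RNA, and MCM3 had 294 and 138 RPKM.

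Late in the course the mRNA of the other 5 subunits stood higher again without a like difference in footprints. Relative to all genes, MCM3 mRNA differed by 1.72 and MCM6 mRNA by 1.19 on the log2 scale at 10 h against 8 h, and 2 of 6 members were past 2-fold in that direction, against 8.63% of all genes. In footprints 0 of 6 were past 2-fold higher in that step, against 9.39% of all genes, where the 6 log2 differences lay between -0.48 (MCM4) and 0.43 (MCM7). In spores against 10 h, MCM5 was the member past 2-fold in mRNA, with a log2 difference of -1.28, against 15.6% of all genes in that direction.

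On the deposited scale, MATa/a cells kept in sporulation medium had less footprint of most MCM genes than meiotic cells at 4.5 h. The median gene was also lower, at 67.5 RPKM in MATa/a cells, against 88.7 RPKM in meiotic cells. MCM6 footprints were at 73.1 RPKM in MATa/a cells, against 220 RPKM in meiotic cells, and MCM5 footprints at 130 RPKM in MATa/a cells, against 247 RPKM in meiotic cells. MCM7 went the other way, with 144 RPKM in MATa/a cells and 102 RPKM in meiotic cells. Relative to all genes, MCM6 was the only member past 2-fold (log2 difference of -1.40), a share near the 19.3% of all genes in that direction. The other differences lay between -0.91 (MCM3) and 0.66 (MCM7). Every member also stood higher in MATa/a footprints than in the 0 h library of the course. MCM2 had 75.4 RPKM, against 23.2 at 0 h, and MCM7 144 RPKM, against 29.5 at 0 h. Relative to the library median, the median member lay at 0.19 in MATa/a cells and at -1.16 at 0 h on the log2 scale. Each strain and state has 1 library here.

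The parallel libraries allow a test. Footprints of all 6 subunits rose between 0 and 1.5 h. MCM2 footprints were at 340 and 302 RPKM at 1.5 h, against 27.8 RPKM at 0 h, and MCM3 footprints at 428 and 385 RPKM at 1.5 h, against 43.6 RPKM at 0 h. MCM5 started from the highest level of the 6, with 446 and 487 RPKM at 1.5 h, against 143 RPKM at 0 h. In limma with Benjamini-Hochberg adjustment over all genes, 6 of 6 members were higher at 1.5 h, as were 48.6% of all genes, and 0 of 6 were lower, as were 8.59%. The members' median log2 change was 3.14, against 0.75 over all genes. The largest change was that of MCM2 (3.48, SE 0.23) and the smallest that of MCM5 (1.69, SE 0.20, adjusted p = 9.74e-05). With each library centred on its median gene, 6 of 6 remained higher, against 23.9% of all genes. The single 0 h library is assumed to vary like the replicated groups. The course put MCM5 at 52.0 RPKM at 0 h, where this library has 143 RPKM, while the other 5 members lay between 23.2 and 47.2 RPKM in the course and between 27.8 and 52.6 RPKM in this library.

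Growing cells had more footprints on most MCM genes than cells at 0 h. In the parallel footprints MCM7 was at 135 RPKM in growth, against 38.8 RPKM at 0 h, and MCM5 at 86.4 RPKM in growth, against 143 RPKM at 0 h. Each state has 1 parallel footprint library, so the spread in this test comes from the replicated groups alone. In limma, 5 of 6 members were higher in growth (39.4% of all genes), with log2 changes of 0.84 (MCM4) to 1.78 (MCM7), and MCM5 was lower (-0.73, SE 0.23, adjusted p = 0.020; 24.7% of all genes). With quantile normalization MCM3 (0.73, adjusted p = 0.0575) and MCM4 (0.55, adjusted p = 0.0534) were not called. In the course, MCM5 footprints were at 72.2 RPKM in growth, against 52.0 RPKM at 0 h, so the lower MCM5 of growth was not seen in the course and rests on 1 parallel library of each state. Relative to all genes, 3 of 6 members were past 2-fold higher in growth in the course footprints (28.3% of all genes) and 4 of 6 in the course mRNA (29.8%). STE2, the a-cell receptor gene, was also higher in growth than at 0 h in the parallel footprints, by 4.54 on the log2 scale. A difference of mating type between these libraries therefore cannot be told apart from that of growth.

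**Figure D3:**
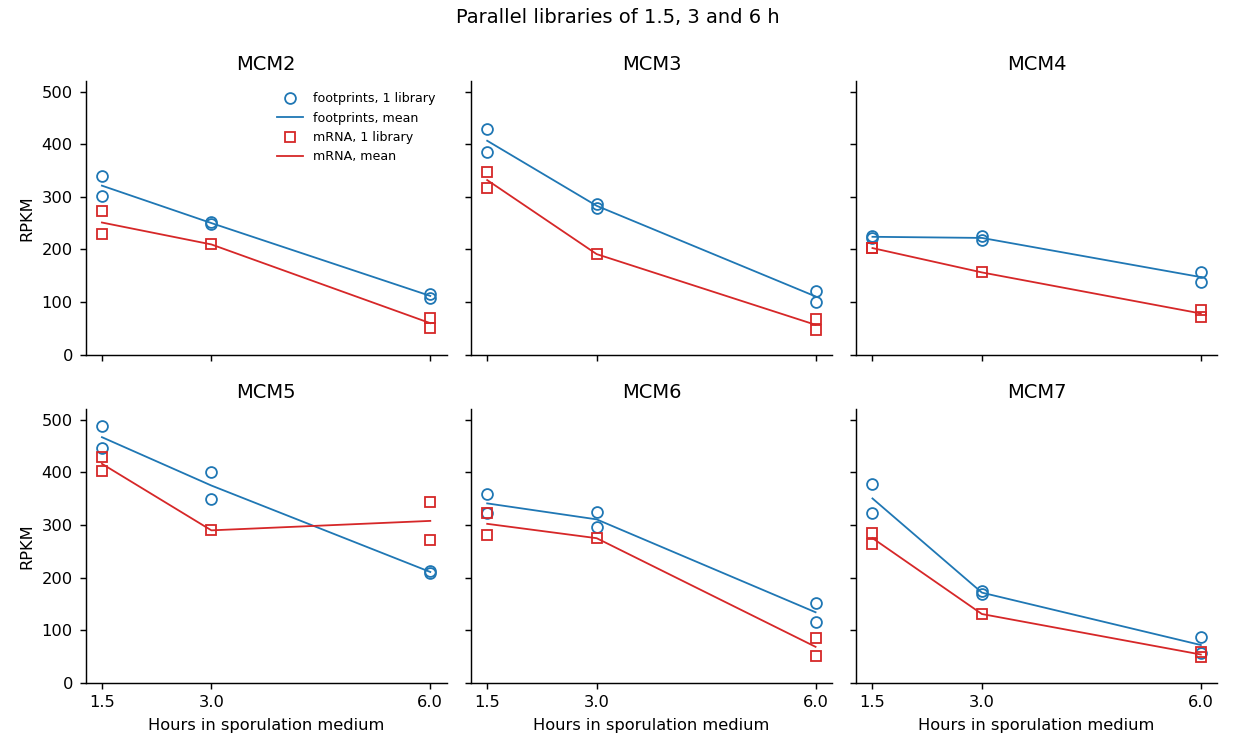
Footprint and mRNA levels (RPKM) of each subunit gene in the parallel libraries at 1.5, 3 and 6 h in sporulation medium, with 1 symbol per library and lines through the means of 2 libraries (1 library for mRNA at 3 h). In MCM2, MCM3, MCM4, MCM6 and MCM7 mRNA and footprints are lowest at 6 h of these 3 times; MCM5 mRNA lies at 343 and 272 RPKM at 6 h and at 290 RPKM at 3 h, while its footprints are lowest at 6 h.

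Between 1.5 and 3 h MCM7 footprints fell, and on the deposited scale no other member passed the test in footprints or mRNA. MCM7 footprints were at 174 and 168 RPKM at 3 h, against 377 and 323 RPKM at 1.5 h, a log2 change of -1.02 (SE 0.22, limma adjusted p = 0.0282), with 1 of 6 members and 3.84% of all genes called lower, and 0 of 6 and 3.97% higher. This call is lost without either 3 h library or without replicate 1 of 1.5 h, with adjusted p of 0.132 to 0.157. The other 5 had footprint changes of -0.52 (MCM3) to -0.01 (MCM4). In mRNA, MCM7 was at 131 RPKM at 3 h, against 285 and 264 RPKM at 1.5 h (log2 change of -1.07, SE 0.27, adjusted p = 0.0644), and 0 of 6 members were called in either direction, against 0.804% of all genes lower and 3.03% higher. Of 5967 genes, 1222 had an unadjusted p under 0.05 in that contrast. With each library centred on its median gene, MCM7 was called lower (-1.17, adjusted p = 0.0469; 1.04% of all genes). With quantile normalization 3 of 6 were called lower in mRNA, MCM3 (-1.11, adjusted p = 0.0247), MCM5 (-0.81, adjusted p = 0.0439) and MCM7 (-1.45, adjusted p = 0.0107). The 3 h mRNA arm of these tests is 1 library.

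Between 3 and 6 h the mRNA of 5 subunits fell and that of MCM5 did not pass the test. MCM6 mRNA was at 85.5 and 51.2 RPKM at 6 h, against 275 RPKM at 3 h. MCM4 mRNA was at 84.7 and 72.0 RPKM at 6 h, against 156 RPKM at 3 h. MCM2 mRNA was at 69.2 and 50.7 RPKM at 6 h, against 210 RPKM at 3 h. Levels of 6 h averaged 56.8 ± 15.2 RPKM in MCM3 and 53.7 ± 6.26 RPKM in MCM7 (SD, n = 2), against 191 and 131 RPKM in the library of 3 h. MCM5 mRNA was at 343 and 272 RPKM at 6 h, against 290 RPKM at 3 h. In each of the 5, both libraries of 6 h lay below that of 3 h, as in 74.8% of all genes (52.8% relative to the library median), while those of MCM5 lay on either side of it. The 3 h arm is 1 library, so its spread is assumed to be that of the replicated groups. In limma, 5 of 6 members were lower, as were 49.1% of all genes, with log2 changes of -2.04 (MCM6), -1.80 (MCM2), -1.76 (MCM3), -1.27 (MCM7) and -0.99 (MCM4) and adjusted p of at most 0.00416. The median gene changed by -0.81. MCM5 changed by 0.08 (SE 0.20, adjusted p = 0.750), and 0 of 6 members were called higher, against 9.47% of all genes. With each library centred on its median gene, MCM5 was higher (0.68, SE 0.20, adjusted p = 0.0344; 14.7% of all genes), MCM2, MCM3 and MCM6 were lower (-1.20, -1.15 and -1.43; 13.8% of all genes), and MCM4 (-0.39, adjusted p = 0.135) and MCM7 (-0.67, adjusted p = 0.0687) were not called.

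Footprints of all 6 subunits, MCM5 included, fell between 3 and 6 h. MCM5 footprints were at 213 and 208 RPKM at 6 h, against 350 and 400 RPKM at 3 h, a log2 change of -0.83 (SE 0.16, limma adjusted p = 0.00239). The other 5 changed by -0.59 (MCM4) to -1.35 (MCM3). In each member, the 2 libraries of 6 h lay below both of 3 h, as in 57.2% of all genes (48.1% relative to the library median). In all, 6 of 6 members were called lower, as were 40.6% of all genes, and the median gene changed by -0.45. With each library centred on its median gene 5 of 6 were lower (28.5% of all genes), and MCM4 was not (-0.34, adjusted p = 0.0858). Without replicate 2 of 3 h or replicate 2 of 6 h, MCM4 also missed the threshold on the deposited scale, at adjusted p of 0.0606 and 0.0758.

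The ratio of MCM5 to the median of the other 5 was also set out for the parallel libraries. In mRNA it was 1.43 and 1.57 at 1.5 h, 1.52 at 3 h, and 4.96 and 5.36 at 6 h. In footprints it was 1.24 and 1.51 at 1.5 h, 1.41 and 1.59 at 3 h, and 1.75 and 1.92 at 6 h. The change of translation efficiency, tested as the interaction of assay and time, was -0.90 for MCM5 at 6 h against 3 h (SE 0.25, limma unadjusted p = 0.00634, adjusted p = 0.113). For the other 5 it lay between -0.01 (MCM7) and 0.82 (MCM6), and the median gene changed by 0.33. Thus 0 of 6 members were called in that contrast, where 0.184% of all genes were called lower and 1.14% higher, and 1182 of 5967 genes had an unadjusted p under 0.05. At 3 h against 1.5 h, 0 of 6 members and 0 genes were called, with 523 genes at an unadjusted p under 0.05 and member changes of -0.10 (MCM2) to 0.36 (MCM4).

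In the brun95 strain, NDT80 itself marked the induced libraries, with 3110, 5626, 5377, 3774 and 1430 RPKM at 5.75, 6, 6.5, 7 and 7.75 h, against 45.0 to 79.8 RPKM in the uninduced libraries. The lowest levels of the other 5 subunits were in the last induced library, while MCM5 was at 327 RPKM or more in all 9. MCM5 mRNA was at 394, 419, 345, 466 and 336 RPKM in the 5 induced libraries in order of hour, against 345, 327, 486 and 457 RPKM in the 4 uninduced ones. MCM6 mRNA was at 217, 188, 98.8, 102 and 36.0 RPKM with induction, against 214, 188, 214 and 195 RPKM without. MCM2 mRNA was at 170, 164, 73.7, 69.5 and 35.3 RPKM with induction, against 180, 147, 182 and 168 RPKM without. The groups overlapped in all 3 genes, and in MCM2 and MCM6 the 3 induced libraries from 6.5 h on lay below all 4 uninduced ones. MCM3 mRNA was at 151, 147, 82.6, 65.5 and 31.1 RPKM with induction, against 204, 173, 163 and 125 RPKM without. MCM7 mRNA was at 92.9, 108, 56.5, 56.7 and 33.5 RPKM with induction, against 129, 95.8, 91.5 and 70.9 RPKM without. In MCM3 and MCM7 too, the induced libraries from 6.5 h on lay below every uninduced one, and with MCM4 this held for 5 of 6 members and 47.8% of all genes. Relative to the library median it held for MCM2, MCM3 and MCM6, 3 of 6 members, against 28.0% of all genes, and not for MCM7 or MCM4. MCM4 mRNA was at 144, 134, 115, 115 and 61.4 RPKM with induction, against 190, 169, 168 and 175 RPKM without. In MCM4 all 5 induced libraries lay below all 4 uninduced ones, as did 7.62% of all genes. Relative to the library median the MCM4 groups overlapped, and MCM2 was the member without overlap, against 6.71% of all genes.

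The induced libraries differed in scale as well. Their median gene among those tested stood at 200, 195, 151, 130 and 75.8 RPKM in order of hour, against 171 to 196 RPKM in the uninduced libraries, while SPS4, a middle sporulation gene, reached 197213 RPKM in the last. The part of this shift in the results was not tested. At 7.75 h and relative to the library medians, MCM5 was higher with induction than without by 0.86 on the log2 scale, MCM7 by 0.24, and MCM4 (-0.19), MCM3 (-0.68), MCM2 (-0.92) and MCM6 (-1.10) were lower. On the deposited scale all 6 were lower at 7.75 h, by -0.44 (MCM5) to -2.40 (MCM6), and the median gene by -1.5. At 6 h the 6 differences relative to the library medians lay between -0.31 (MCM4) and 0.25 (MCM7). MCM5 over the median of the other 5 was 2.60, 2.86, 4.17, 6.71 and 9.52 in the induced libraries in order of hour, against 1.81, 1.94, 2.90 and 2.73 in the uninduced ones.

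**Figure D4:**
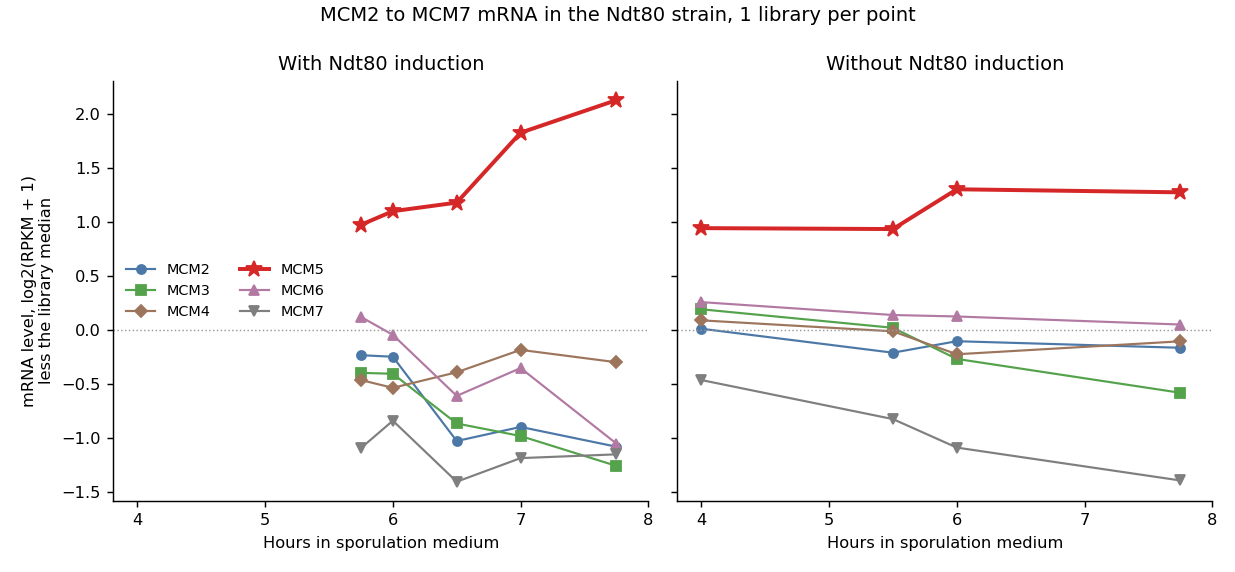
mRNA level of each subunit gene, as log2(RPKM + 1) less the library median, against hours in sporulation medium, with Ndt80 induction on the left and without on the right, 1 library per point. MCM5 (red stars) reaches 2.13 at 7.75 h with induction and 1.28 at 7.75 h without; MCM2, MCM3 and MCM6 lie at -1.05 to -1.26 with induction and at -0.58 to 0.05 without at that hour.

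With hour as a linear term over all 9 libraries, 0 of 6 members were called between induced and uninduced libraries in limma, against 0.067% of all genes higher and 0 genes lower. In that fit 613 of 5974 genes had an unadjusted p under 0.05, and the members' changes lay between -0.70 (MCM2, SE 0.45) and -0.09 (MCM5, SE 0.30). Of the 12 middle meiotic and state markers, NDT80 alone was called there and SPS4 was not, so the lack of calls says little about the members. Each hour of an arm is 1 library, so the SE in the fits of this strain mixes departures from a straight line in hour with spread between libraries. With only the induced libraries from 6.5 h on, 2 of 6 members were called lower in limma, against 19.1% of all genes. These were MCM2 (-1.43, SE 0.38, adjusted p = 0.0300) and MCM3 (-1.19, SE 0.39, adjusted p = 0.0482), and 0 of 6 were called higher, against 7.72%. This choice was made after the values of 5.75 and 6 h were seen, so its p-values are a description. MCM5 changed by -0.21 in that fit (SE 0.36, adjusted p = 0.648), and the median gene by -0.80. With each library also centred on its median gene, MCM2 was the member called lower (-0.83, adjusted p = 0.0304; 12.3% of all genes), and MCM5 had 0.39 (SE 0.31, adjusted p = 0.370). For the hour term, 0 of 6 members and 0 genes were called, with 551 genes at an unadjusted p under 0.05. Its slopes lay between -0.44 (MCM3) and 0.07 (MCM5) on the log2 scale per hour.

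Other replication genes gave a reference for the timing of S phase, since no measure of DNA content was used here. The core histones, which package new DNA, were highest at 1.5 h in 8 of 8 genes in footprints, mRNA and total RNA alike. Of the 30 fork enzymes and accessory factors (polymerases, primase, clamp, clamp loader, replication protein A and ribonucleotide reductase among them), 25 were highest at 1.5 h in footprints and 26 in mRNA. The genes that load the helicase had no common time: of 8 origin licensing genes, 1 was highest at 1.5 h in footprints and 2 in mRNA, and CDC6 was among them in both. Of 12 genes that activate the helicase, 5 were highest at 1.5 h in either assay. CLB5 and CLB6, the S phase cyclins, were both highest at 6 h in either assay, with medians 2.41 above their 1.5 h level in footprints and 1.95 above it in mRNA on the log2 scale. Of 8 early meiotic genes, 5 were highest at 3 h in footprints and 3 in mRNA.

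**Figure D5:**
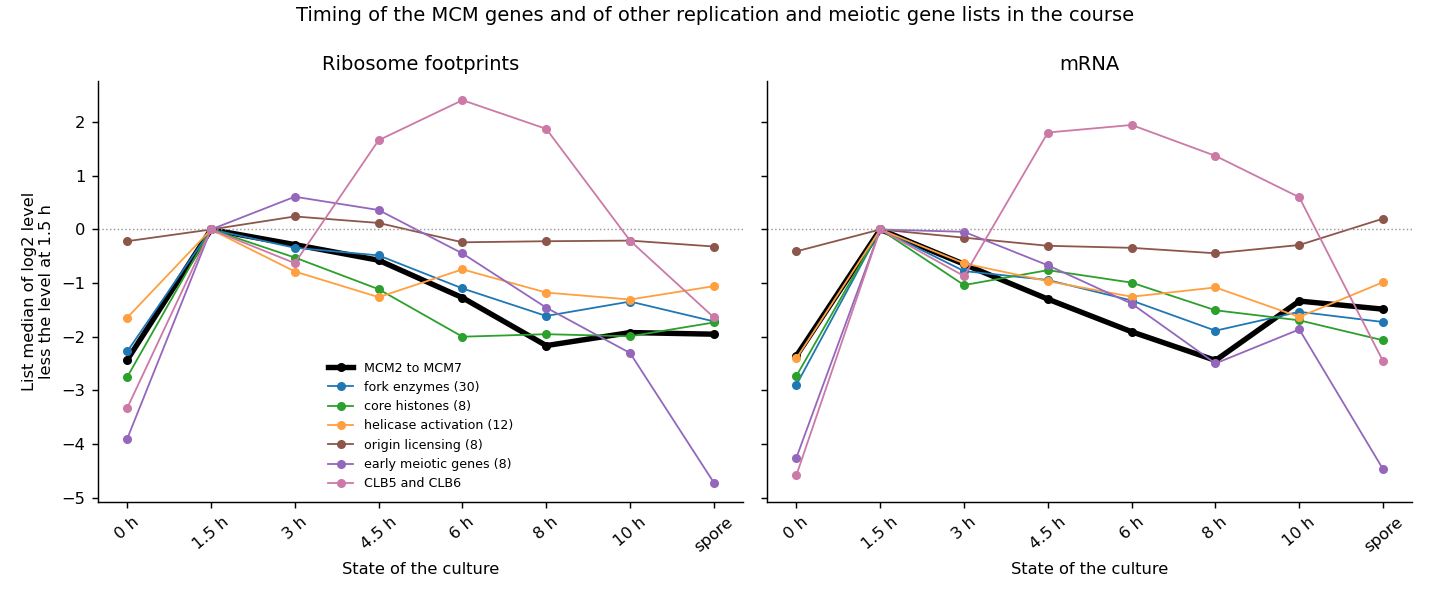
Median log2 level of each gene list less its level at 1.5 h, relative to the library median, from 0 h to spores in course footprints (left) and mRNA (right), 1 library per point. MCM2 to MCM7 (black) lie at -2.43 in footprints and -2.36 in mRNA at 0 h, and at -2.17 and -2.44 at 8 h; the fork enzymes and histones are also highest at 1.5 h, and CLB5 and CLB6 at 6 h.

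In the parallel libraries these lists were tested in the same fits. Between 0 and 1.5 h, when 48.6% of all genes rose with a median change of 0.75, footprints rose in 28 of 30 fork enzymes (median log2 change of 2.97), 8 of 8 core histones (4.51), 10 of 12 helicase activation genes (2.02), 5 of 8 origin licensing genes (0.87) and 2 of 2 S phase cyclins (4.63). In that contrast 1 fork enzyme, RNR4, fell, as did 1 origin licensing gene, TAH11, which encodes Cdt1 (-2.21, SE 0.29, adjusted p = 0.000185). Of the 7 G1 and S phase regulators, 1 rose and 1 fell, 7 of 8 early meiotic genes rose and 1 (IME1) fell, and 3 of the 12 middle meiotic and state markers rose and 3 fell. At 6 h against 3 h, when 40.6% of all genes fell in footprints and 49.1% in mRNA, 27 of 30 fork enzymes fell in footprints (median -1.22) and 26 in mRNA (-1.33), 8 of 8 core histones fell in footprints (-1.38) and 7 in mRNA (-0.90), and 2 of 2 S phase cyclins rose in each. The members' medians in that contrast were -1.19 in footprints and -1.51 in mRNA.

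RNR1, the large subunit of ribonucleotide reductase, fell between 1.5 and 3 h in both assays. Of all genes, 0.804% were called lower in mRNA and 3.84% in footprints in that step. The 3 h mRNA arm is 1 library, and the number of genes called varied with the library left out. At 3 h against 1.5 h RNR1 changed by -1.56 in mRNA (SE 0.23, limma adjusted p = 0.0164) and by -1.10 in footprints (SE 0.19, adjusted p = 0.0142). Core histones fell in mRNA in 6 of 8 genes (median -0.98) and in footprints in 4 of 8 (-0.76) in that step, and fork enzymes in mRNA in 5 of 30 (-0.57) and in footprints in 13 of 30 (-0.63). DPB4, a subunit of DNA polymerase epsilon, was the fork enzyme that rose in mRNA (1.06, adjusted p = 0.0216). In that step the members' medians were -0.45 in mRNA and -0.34 in footprints. CDC45, which joins the active helicase, fell by 1.15 in mRNA (adjusted p = 0.0231) and by 1.02 in footprints (adjusted p = 0.0103). The differences between these genes and the members were not tested.

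Among licensing genes, ORC3, a subunit of the origin recognition complex, was also called between 3 and 6 h, in mRNA and in translation efficiency. In both contrasts the mRNA of 3 h is 1 library, and its spread is assumed to be that of the replicated groups. ORC3 mRNA rose by 2.03 on the log2 scale (SE 0.22, limma adjusted p = 0.000228) and its translation efficiency fell by 2.18 (SE 0.28, adjusted p = 0.0143). PSF3, a subunit of GINS, rose by 0.92 in mRNA (adjusted p = 0.00862). In translation efficiency 2 of 8 licensing genes fell in that contrast, against 0.184% of all genes, and 0 of 12 helicase activation genes and 0 of 30 fork enzymes were called.

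Among the 8 genes whose profiles over the 18 footprint and mRNA libraries from growth to spores were most like the mean of the 6 members were RNR1 (r = 0.98), POL1 (0.96), HEM13 (0.95), PRR1 (0.95), CDC6 (0.95), TOS4 (0.94) and OGG1 (0.94). POL1 encodes the catalytic subunit of DNA polymerase alpha and OGG1 a DNA glycosylase. RNR1, POL1 and CDC6 are also in the lists above. In the same 18 libraries, MCM5 correlated with the mean of the other 5 at r = 0.58, and each of the others with its own other 5 at 0.87 to 0.98. The libraries share their scaling and many other genes with this pattern, so the values are a description.

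No annotated gene of the reference overlaps any of the 6 members. The labels do not name the strand that was counted, so reads of an overlapping transcript on the opposite strand could not be told apart. PIG1, upstream of MCM5 on the opposite strand, had 528 RPKM of mRNA at 1.5 h and 155 at 8 h, and SMD2, downstream on the same strand and encoding a core spliceosomal protein, had 125 RPKM at 1.5 h and 326 at 8 h. MIN7, upstream of MCM7 on the opposite strand, had 475 RPKM of mRNA at 1.5 h and 5711 at 6 h, against 264 and 60.2 for MCM7.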

How the data were processed

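Ribosome footprints, mRNA and total RNA were measured in SK1 yeast, and 52 libraries of 54 samples were used. The authors deposited RPKM per gene, per the file headers. The submitters' processing notes name CASAVA, bcl2fastq 2.17 and Bowtie2; no source used here names the counting tool, genome build or strand. Whole reads were recovered from the values (tolerance 0.02 read). In the deposited total RNA table, 9 of 10 columns behaved as a signal of reads times length, and all 10 were rescaled to reads per length and library total. The deposited induction table has a line of hours under its header, so its column with a negative hour is recorded as other and holds RPKM below that line. Of the genes of the parallel table, 443, with 0 members among them, stand in another order in 11 libraries and were assigned by position. Its 3 h mRNA columns were identical in 6679 genes and were counted as 1 sample. The parallel 0 h mRNA sample, 6 columns and 5 lines that name no gene were left out.

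Genes averaging 5 RPKM or more were fitted on log2(RPKM + 1) with limma 3.58.1 (R 4.3.3, trended spread), over 11 parallel libraries (13 with the single footprint libraries of growth and 0 h) or the 9 induction libraries with hour as a linear term. Fold changes on this scale understate those of low genes. A call is an adjusted p under 0.05 (Benjamini-Hochberg, across the genes tested). The course has 1 library per state and no test, and 2-fold relative to the median of all genes is described. Python 3.11.15, numpy 2.4.6, pandas 2.3.3 and matplotlib 3.10.9 were used, and the fits were tested on simulated data. Counting error is smallest in the deepest libraries. The members and the 8 gene lists were chosen with earlier results of these data known. The genes named are the members, the called gene of each list with the largest change in each direction, markers of timing and the 8 genes most like the members, of which 1 is not reported here. STE2, SPS4 and the neighbours were named outside this rule, after their values were seen. Alternatives were another pseudocount, no filter, centring, quantile normalization, a replicate block and leaving out each library. Sequences and promoter motifs were not analysed here.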

Additional observations from a re-analysis of the deposited data

Results flagged for a closer look

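MCM4 mRNA in the induced libraries of the brun95 strain was flagged because 1 library lay far from the others. It was at 144, 134, 115, 115 and 61.4 RPKM at 5.75, 6, 6.5, 7 and 7.75 h. As log2(RPKM + 1), the gap between the lowest library and the next, divided by the range of the 5, was 0.729. In the 4 uninduced libraries MCM4 mRNA lay between 168 and 190 RPKM. The 7.75 h library also had the fewest reads of the 9 (2.62 M) and the lowest median gene, and relative to that median MCM4 was at -0.30 on the log2 scale, inside the range of the other 4 induced libraries (-0.54 to -0.18). Chance flags about 1 in 20 such groups of replicates, and 12 were tested. That rate may not hold here, since the 5 libraries are of different hours.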

How the results depend on the processing

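The counts at 1.5 h against 0 h (6 of 6 members), at 6 h against 3 h in mRNA (5 of 6) and at growth against 0 h (6 of 6) were the same without each replicated library in turn. The single libraries of growth footprints, 0 h footprints and 3 h mRNA, on which these contrasts rest, could not be left out. At 6 h against 3 h in footprints the count was 5 to 6, and at 3 h against 1.5 h in footprints 0 to 1. At 3 h against 1.5 h in mRNA, 1 member was called with centred libraries and 3 with quantile normalization. Between induced and uninduced libraries, 2 members were called from 6.5 h on and 1 when also centred, an alternative added after seeing the data. The number of all genes called at 3 h against 1.5 h in mRNA was 229, against 76 with the replicate block and 600 with quantile normalization, and 61 to 309 without 1 library. In footprints it was 466, against 216 with quantile normalization, and 52 (without replicate 2 of 3 h) to 798. At 6 h against 3 h it was 3494 in mRNA, against 1703 centred, and 79 for translation efficiency, against 32 centred, 44 with the replicate block and 183 with pseudocount 5, and 7 to 160 without 1 library. For translation efficiency at 3 h against 1.5 h it was 0, against 11 with no filter and up to 8 without 1 library. Between induced and uninduced libraries it was 4, against 1603 from 6.5 h on and 3 to 106 without 1 library, and for hour 0, against 49 in uninduced libraries only.

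Whether the shared replicate numbers pair the samples is not known. Deviations from group means correlated at -0.11 to 0.24 over 10 pairs of groups, with the highest value between footprints and mRNA of 1.5 h. Counting error also enters these deviations, so low values cannot exclude shared material. With the replicate block the number of members called was the same in all 8 parallel contrasts.

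Members past 2-fold in the course depended on the scale. On the deposited scale, not centred, the counts were 5 for growth against 0 h in footprints and 1 in mRNA, 2 for MATa/a against meiotic cells in footprints, and in mRNA 0 at 3 h against 1.5 h, 3 at 6 h against 4.5 h, 1 at 8 h against 6 h, 4 at 10 h against 8 h and 0 in spores against 10 h. With total RNA in place of mRNA they were 0 at 3 h against 1.5 h, 1 at 8 h against 6 h, 1 at 10 h against 8 h and 0 in spores against 10 h. At 6 h against 4.5 h in mRNA, 1 member was past 2-fold with pseudocount 0.1 and 1 with no filter.

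Log2 changes that turned their sign were all short of the threshold in the fits reported. With centred libraries these were MCM4 footprints at 3 h against 1.5 h (0.10), translation efficiency of MCM2 (0.11) and MCM6 (0.21) at 3 h against 1.5 h, and MCM5 between induced and uninduced libraries (0.14, and 0.39 from 6.5 h on). With quantile normalization they were the first 3 (0.039, 0.16 and 0.24), MCM4 translation efficiency at 6 h against 3 h (-0.016), MCM7 between induced and uninduced libraries (0.090) and MCM4 for hour (0.0044). With the replicate block, MCM7 translation efficiency was -0.084 at 3 h against 1.5 h and 0.12 at 6 h against 3 h. Without 1 library the ranges were -0.091 to 0.24 for MCM5 mRNA at 6 h against 3 h and -0.034 to 0.0065 for MCM4 footprints at 3 h against 1.5 h. Translation efficiency at 3 h against 1.5 h ranged over -0.23 to 0.021 (MCM2), -0.10 to 0.10 (MCM6) and -0.069 to 0.15 (MCM7), and at 6 h against 3 h over -0.33 to 0.31 (MCM7). Between induced and uninduced libraries the ranges were -0.17 to 0.0073 (MCM5), -0.88 to 0.058 (MCM6) and -0.43 to 0.080 (MCM7). The cause of these changes was not tested. Depth limits the 0 h libraries most, where MCM2 had 25.0 reads.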
